A study of Homo sapiens with 4 samples.

Results

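The 10 genes SLC2A1, HK1, HK2, PFKP, PFKFB3, PKM, LDHA, LDHB, SLC16A1 and SLC16A3 carry glucose into the cell, commit it to glycolysis and handle the lactate that results. They were taken by symbol because earlier work links these Warburg pathway genes to 20(S)-Rg3, a saponin of ginseng, and all 10 had a row among the 40205 genes of the deposited count table. RNA was compared between 2 control libraries and 2 libraries of cells exposed to this saponin (80 µg/mL, 24 h), all labelled as SKOV3, a human ovarian cancer cell line grown with fetal bovine serum. The labels give no vehicle for the controls, call the RNA pooled, and leave unsaid whether replicates were separate cultures, so p-values measure only the spread between these libraries.

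Many tumour cells take up much glucose and turn it into lactate even where oxygen is present, which is known as the Warburg effect. Glucose enters through carriers such as GLUT1 and is trapped by hexokinase. Phosphofructokinase commits it to glycolysis under the control of fructose 2,6-bisphosphate. Pyruvate kinase yields pyruvate, lactate dehydrogenase converts pyruvate and lactate into each other, and monocarboxylate transporters carry lactate across the plasma membrane. Hypoxia-inducible factors bind a short core sequence near several of these genes. RNA levels alone were measured here, not protein, glucose uptake or lactate.

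Total counts per library ran from 24482846 to 30132517. Levels are CPM, each gene's counts relative to the library's total as corrected by TMM, edgeR's factor for library composition, and are compared only between libraries, not between genes. The keratins KRT7, KRT8 and KRT18, which mark simple epithelium, were at 1557 to 2817 CPM. Of the other epithelial and SKOV3 markers, EPCAM had no count in any library, KRT19 had none in 3 of 4 libraries, PAX8 was at most 0.681 CPM, and ERBB2, which is amplified in SKOV3, lay between 45.2 and 53.5 CPM. The label SKOV3 therefore rests on the submitters' annotation. Summed markers of leukocytes were at 17.2 and 21.8 CPM in controls and 10.6 and 17.7 CPM with Rg3, nearly all of it CD68. PTPRC, a marker of all leukocytes, had no count in 3 of 4 libraries. Summed fibroblast markers lay between 29.5 and 39.1 CPM, most of it PDGFRB, with PDGFRA at 0. Summed endothelial markers lay between 16.5 and 19.8 CPM, most of it CDH5, with KDR at 0. In such bulk RNA, fewer cells of a type and less RNA per cell cannot be told apart.

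None of the 10 genes was called as changed with Rg3 in edgeR's quasi-likelihood test, which does not show that they were unchanged. All 10 passed the filter on low counts, and 0 were called higher and 0 lower at an adjusted p under 0.05, each with an adjusted p of 0.999. Over all 16323 genes tested, 0.0306% were called, so a count of 0 among 10 genes is near that background. At an unadjusted p under 0.05 there were also 0 of the 10, against 4.73% of all genes, and the smallest p was 0.293 for PKM. Log2 fold changes ran from −0.22 for SLC16A3 to 0.14 for PFKFB3, with 6 genes above 0 and 4 below. Their median was 0.03, beside 0.01 over all genes tested, of which 52.5% were above 0. DESeq2, which called 0.419% of the 13598 genes in its count, and limma voom, which called 0.0306% of 16323, also called 0 of the 10. The 95% intervals, which cover each gene singly, reached from 0.622-fold at the lowest (SLC16A3) to 1.52-fold at the highest (PFKFB3).

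**Figure D1:**
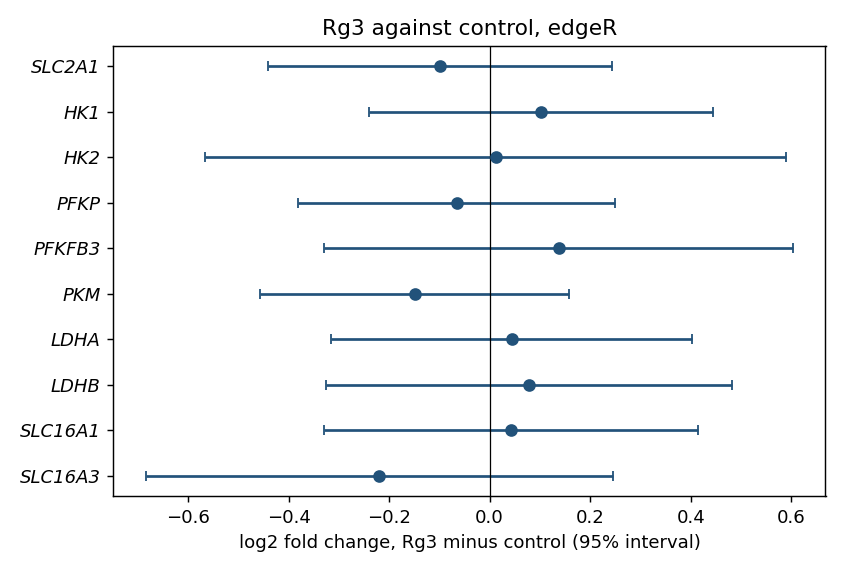
Log2 fold change of the 10 genes, Rg3 minus control, from edgeR's quasi-likelihood fit; points are estimates and bars are 95% intervals. All 10 intervals include 0, and the point estimates lie between −0.22 and 0.14.

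The libraries exposed to Rg3 lay on opposite sides of the controls for 5 of the 10 genes. SLC2A1, HK2 and PFKP were above both controls in Rg3 replicate 1 and below both in replicate 2, and LDHB and SLC16A1 showed the reverse. Of all genes tested, 15.9% followed the first order and 15.8% the second, together 31.6%. Rg3 replicate 1 exceeded replicate 2 in 6 of the 10 genes, namely SLC2A1, HK1, HK2, PFKP, PFKFB3 and SLC16A3. The median absolute log2 difference over the 10 genes was 0.30 between the Rg3 libraries and 0.09 between the controls. The same medians over all genes tested were 0.30 and 0.14, so the wide gap between the Rg3 libraries was shared by genes at large.

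**Figure D2:**
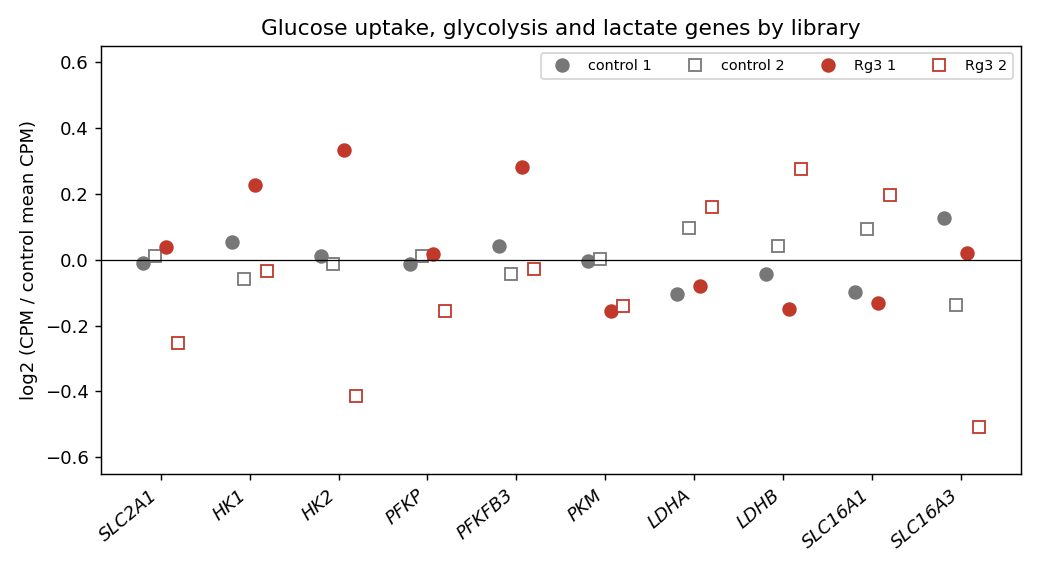
Each point is one library's CPM for a gene as log2 of its ratio to the control mean; grey marks controls, red marks Rg3, filled circles are replicate 1 and open squares replicate 2. The red symbols lie on either side of 0 for most genes, and for PKM both lie below 0.

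SLC2A1 encodes GLUT1, the main glucose carrier of many tumour cells. It was at 91.5 and 92.9 CPM in the controls and at 94.7 and 77.4 CPM in Rg3 replicates 1 and 2. The controls were nearly equal, and the Rg3 libraries enclosed them. It had a log2 fold change of −0.10 (SE 0.15), with an interval of 0.736 to 1.18-fold. Without Rg3 replicate 2 the log2 fold change was 0.04, and without Rg3 replicate 1 it was −0.25. The row named SLC2A1-AS1, an antisense RNA of this locus, held 5 to 12 counts per library against 1864 to 2916 for SLC2A1.

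HK2 encodes the inducible hexokinase that many tumours raise. It was at 14.7 and 14.4 CPM in the controls and at 18.3 and 10.9 CPM with Rg3, from 263 to 564 counts per library. The controls agreed closely, whereas Rg3 replicate 1 held 1.68 times the level of replicate 2, the widest such gap among the 10 genes. The log2 fold change was 0.01 (SE 0.25), and its interval of 0.676 to 1.51-fold was the widest of the 10 on the log2 scale. Leaving out Rg3 replicate 1 gave −0.41 (adjusted p = 0.123) and leaving out replicate 2 gave 0.33 (adjusted p = 0.192), in edgeR. The sign also turned under upper-quartile scaling (−0.02). The pseudogene HK2P1 held 17 and 30 counts among the controls against 33 and 28 in the Rg3 libraries, equal to 4.71% to 10.6% of the HK2 count, with the highest share in Rg3 replicate 2.

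HK1 encodes the broadly expressed hexokinase. It was at 143 and 132 CPM in the controls and at 161 and 134 CPM with Rg3. Only Rg3 replicate 1 lay outside the control range, and the groups overlapped. With all libraries the log2 fold change was 0.10 (SE 0.15), and without Rg3 replicate 1 it was −0.03.

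PFKP encodes the platelet form of phosphofructokinase. Its levels were 171 and 174 CPM in the controls and 175 and 155 CPM with Rg3. Rg3 replicate 1 exceeded the higher control by under 1 CPM, while replicate 2 was lower than both controls. Over all libraries the log2 fold change was −0.07 (SE 0.14), and 0.02 without Rg3 replicate 2.

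PFKFB3 makes fructose 2,6-bisphosphate, the strongest activator of phosphofructokinase. It was the least counted of the 10 genes, with 188 to 298 counts per library. It stood at 8.20 and 7.72 CPM in the controls and at 9.67 and 7.81 CPM with Rg3, where replicate 2 fell between the controls. The log2 fold change of 0.14 (SE 0.20) was the highest of the 10 and became −0.02 without Rg3 replicate 1.

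PKM, the pyruvate kinase gene, was the only one of the 10 whose groups did not overlap. It was at 2985 and 2997 CPM in the controls and at 2683 and 2712 CPM with Rg3, so both Rg3 libraries were lower than both controls. The difference within each group was small beside the gap between groups. Over all genes tested, 17% had both Rg3 libraries below both controls and 15.3% had both above, so groups without overlap were common. The edgeR log2 fold change was −0.15 (SE 0.13, unadjusted p = 0.293), with an interval of 0.728 to 1.12-fold. It lay between −0.18 and −0.14 in every alternative fit, including each that left out a library. The SE draws on a spread that edgeR shares across genes, whereas for PKM the log2 difference between replicates was −0.01 in the controls and −0.02 with Rg3. With 2 libraries per group, the spread of a single gene is poorly known, and so close an agreement may not reflect its true spread. Gene counts do not separate the splice forms of PKM. Its 4 pseudogene rows, among them PKMP1 and PKMP5, together held 0.833% to 0.942% of the PKM count.

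LDHA and LDHB encode the subunits of lactate dehydrogenase, of which the LDHA form favours lactate production and the LDHB form is common in oxidative tissue. LDHA was at 617 and 709 CPM in the controls and at 627 and 740 CPM with Rg3. Each group held a lower and a higher library, and the ranges overlapped. The log2 fold change was 0.04 (SE 0.15), with −0.04 without control 1 and −0.08 without Rg3 replicate 2. LDHB was at 1184 and 1257 CPM in the controls and at 1100 and 1477 CPM with Rg3. Here the Rg3 libraries lay on opposite sides of the controls, and the log2 fold change was 0.08 (SE 0.17), or −0.15 without Rg3 replicate 2. Pseudogenes named after LDHA, LDHAP4 foremost, held 6.76% to 7.5% of the LDHA count, and those named after LDHB held 2.02% to 2.13% of the LDHB count. How the authors assigned reads shared with these copies is not given in the sources used here.

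SLC16A1 encodes the monocarboxylate transporter MCT1, which can carry lactate in or out. It was at 90.1 and 103 CPM in the controls and at 88.2 and 111 CPM with Rg3, so the Rg3 libraries enclosed the controls. SLC16A1 had a log2 fold change of 0.04 (SE 0.16), −0.04 without control 1 and −0.13 without Rg3 replicate 2.

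SLC16A3 encodes MCT4, the lactate exporter of glycolytic cells. It was at 224 and 186 CPM in the controls and at 208 and 144 CPM with Rg3. Rg3 replicate 2 was below all other libraries, while replicate 1 lay between the controls. The log2 fold change was −0.22 (SE 0.20), the lowest of the 10. Without Rg3 replicate 1, edgeR called SLC16A3 lower, at −0.50 (adjusted p = 0.04208), in a fit that called 5.22% of all genes and had a single Rg3 library, assumed to vary as the controls do. Without Rg3 replicate 2 the log2 fold change was 0.02 (adjusted p = 0.954).

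Ratios between related genes within a library do not depend on scaling, and gene length cancels when 1 pair is followed across libraries. For HK2 to HK1 the ratio of counts was 0.102 and 0.109 in the controls and 0.114 and 0.0812 with Rg3. For LDHA to LDHB it was 0.521 and 0.564 in the controls and 0.570 and 0.501 with Rg3. For SLC16A3 to SLC16A1 it was 2.48 and 1.81 in the controls and 2.36 and 1.30 with Rg3. Each ratio was lower in Rg3 replicate 2 than in the other 3 libraries. In the first pair and in the second, Rg3 replicate 1 held the highest ratio. The group means differed by −0.14, −0.02 and −0.27 on the log2 scale, in the same order. Exact two-sided permutation tests over the 4 libraries gave p = 1, p = 1 and p = 0.667, all 1 after adjustment over the 3 pairs. The smallest p this design allows is 0.33.

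**Figure D3:**
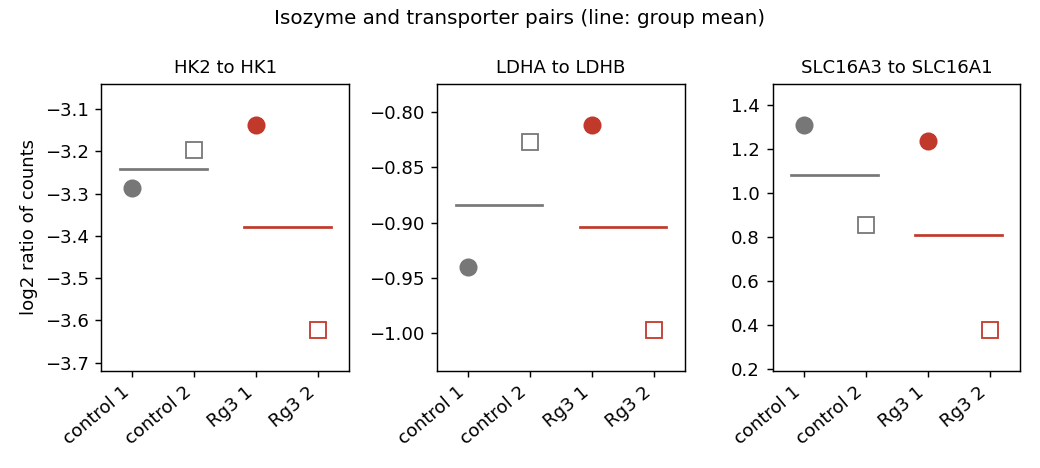
Log2 ratio of counts for HK2 to HK1, LDHA to LDHB and SLC16A3 to SLC16A1, with one symbol per library and lines at the group means; each panel has its own vertical axis. In each panel Rg3 replicate 2 is the lowest point.

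The genes whose pattern over the 4 libraries came nearest were sought among the 10 and the pathway genes with a mean of at least 1 CPM. Likeness was the Euclidean distance of log2 CPM, each gene centred on its own mean. HK1 and PFKFB3 were each other's nearest (distance 0.0474), as were LDHA and SLC16A1 (0.0623). LDHB was nearest to SLC16A1 (0.105). SLC2A1 was nearest to GPI, the glucose phosphate isomerase (0.0839), and PFKP to the aldolase gene ALDOA (0.0588). SLC16A3 was nearest to PFKL, the liver phosphofructokinase (0.0890). PKM was nearest to the enolase gene ENO1 (0.0927). The median distance of a gene to the 67 candidates lay between 0.317 for PKM and 0.590 for HK2. The nearest distance is the smallest of the 67, so it falls below that median by construction. These distances describe 4 libraries.

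Upstream sequence is shown for HK2 and LDHA, which held the most copies of the hypoxia response core among the 9 genes with a window in the RefSeq table (all but SLC16A1). The 250 bases before the RefSeq gene start (GRCh38.p14) are printed from 5′ to 3′, with capitals for the core ACGTG or GCGTG on either strand and for the E-box CACGTG, which contains the core.
HK2 (chr2:74833877-74834126, plus strand): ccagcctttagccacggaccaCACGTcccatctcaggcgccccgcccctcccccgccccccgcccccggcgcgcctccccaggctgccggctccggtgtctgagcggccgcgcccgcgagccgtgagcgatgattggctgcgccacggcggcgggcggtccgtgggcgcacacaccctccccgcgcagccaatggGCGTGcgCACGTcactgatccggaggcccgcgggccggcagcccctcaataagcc
LDHA (chr11:18394313-18394562, plus strand): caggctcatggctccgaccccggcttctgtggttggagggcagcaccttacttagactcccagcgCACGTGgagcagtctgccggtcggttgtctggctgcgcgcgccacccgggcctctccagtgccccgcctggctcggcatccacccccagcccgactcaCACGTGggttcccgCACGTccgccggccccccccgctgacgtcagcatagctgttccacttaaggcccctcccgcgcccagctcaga

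The HK2 window held 3 matches to the core and 0 E-boxes. The LDHA window held 5 matches to the core, of which those on both strands of an E-box count separately, and 2 E-boxes. PFKFB3 held 1 match to the core, and the windows of SLC2A1, HK1, PFKP, PKM, LDHB and SLC16A3 held none. Of 27305 windows of this length, 43.1% held the core and 6.49% the E-box. HK2 was higher in Rg3 replicate 1 than in replicate 2 and LDHA lower, at log2 differences of 0.75 and −0.24, where control 1 minus control 2 was 0.02 and −0.20. A match describes letters in this window only.

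Across the wider glucose pathway, 0 of 62 tested genes from 7 lists were called higher and 0 lower with edgeR. The lists named 90 genes in all, and 28 of them had too few counts to be tested. Of the 62, 29 were above 0 and 33 below, with a median log2 fold change of −0.02. At an unadjusted p under 0.05 there were 3, namely PFKFB2, SLC2A6 and TXNIP, against 4.73% of all genes tested. Both Rg3 libraries lay above both controls for 10 of the 62 and below them for 13, beside 15.3% and 17% of all genes. Fits without Rg3 replicate 1 called 5.22% of all genes and fits without replicate 2 called 2.68%, and calls named below from those fits are to be read against these shares.

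**Figure D4:**
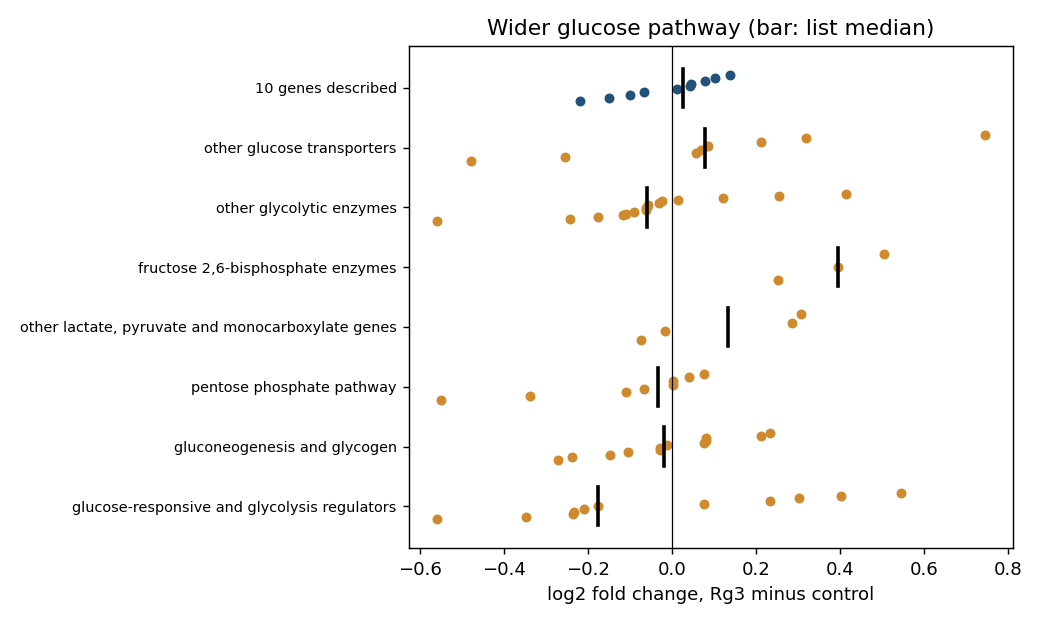
Log2 fold change, Rg3 minus control, of every tested gene in the 10 genes described (blue) and in 7 lists of the wider glucose pathway (orange); black bars are list medians. The list medians lie between −0.18 and 0.40, and no point is a called gene.

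The enzymes that set fructose 2,6-bisphosphate, other than PFKFB3, had 3 of 3 tested genes above 0, a median of 0.40 and 0 called. PFKFB3, described above, had a log2 fold change of 0.14 with overlapping groups. PFKFB2, a kinase-phosphatase of the PFKFB family, was at 27.0 and 25.5 CPM in the controls and at 42.1 and 32.2 CPM with Rg3. Its log2 fold change was 0.50 (SE 0.17, unadjusted p = 0.0197, edgeR adjusted p = 0.966). Without Rg3 replicate 2 it was called higher at 0.68 (adjusted p = 0.007025), and without replicate 1 it had 0.30 (adjusted p = 0.139). PFKFB4, a hypoxia-inducible member of the family, was at 7.10 and 7.04 CPM and at 9.67 and 8.93 CPM. TIGAR, which breaks down fructose 2,6-bisphosphate, was at 19.6 and 19.8 CPM and at 19.9 and 27.1 CPM, and was called higher without Rg3 replicate 1 at 0.46 (adjusted p = 0.04537) but had 0.017 without replicate 2. In all 3 genes both Rg3 libraries were above both controls, as in 15.3% of all genes, for TIGAR by 19.90 against 19.75 CPM.

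Other glycolytic enzymes had 4 of 16 tested genes above 0, 12 below and 0 called, with a median of −0.06. ALDOC, an aldolase, was at 43.6 and 45.6 CPM in the controls and at 51.0 and 55.4 CPM with Rg3 (log2 fold change 0.26, SE 0.13). HKDC1, a further hexokinase, stayed between 1.78 and 3.70 CPM (log2 fold change 0.41, SE 0.35). At the low end were the muscle enolase ENO3 (−0.56, SE 0.33) and PFKL (−0.24, SE 0.18). ENO3 differed between the controls, at 8.57 and 16.1 CPM, and was at 6.62 and 10.2 CPM with Rg3. PFKL was at 155 and 137 CPM and then at 142 and 104 CPM, and without Rg3 replicate 1 it was called lower at −0.48 (adjusted p = 0.03344), against −0.035 without replicate 2 (adjusted p = 0.913). PGAM4, a retrogene copy of PGAM1 that can share its reads, was at 44.9 and 42.3 CPM in the controls and at 30.8 and 50.2 CPM with Rg3. Without Rg3 replicate 2 it was called lower at −0.50 (adjusted p = 0.03563), and without replicate 1 it had 0.21 (adjusted p = 0.262). GAPDH, often used as a reference gene, was at 7186 and 7839 CPM and at 6678 and 8100 CPM, with Rg3 libraries on either side of the controls.

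Other glucose transporters had 6 of 8 tested genes above 0, a median of 0.08 and 0 called. SLC2A6, which encodes GLUT6, was at 10.8 and 10.2 CPM in the controls and at 23.6 and 11.5 CPM with Rg3, so the higher level rested on Rg3 replicate 1. Its log2 fold change was 0.75 (SE 0.31, unadjusted p = 0.0473, edgeR adjusted p = 0.999). It was called at 0.75 without a low-count filter (adjusted p = 0.03685), where 0.834% of genes were called, and at 1.17 without Rg3 replicate 2, against 0.13 without replicate 1. SLC2A13, a proton-coupled inositol transporter, had a log2 fold change of 0.09 (SE 0.23). SLC2A11 (−0.48) and the insulin-responsive carrier SLC2A4 (−0.25) stayed below 2.4 CPM.

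Other lactate, pyruvate and monocarboxylate genes had 2 of 4 tested genes above 0 and 0 called. BSG, the chaperone of MCT1 and MCT4 at the membrane, was at 353 and 329 CPM in the controls and at 355 and 293 CPM with Rg3. SLC16A7, which encodes MCT2, was at 40.4 and 43.0 CPM and at 41.8 and 40.6 CPM. The mitochondrial pyruvate carrier subunit MPC2 was at 21.96 and 23.73 CPM and at 25.5 and 31.1 CPM (log2 fold change 0.31, SE 0.16), and was called higher without Rg3 replicate 1 at 0.45 (adjusted p = 0.04796), against 0.16 without replicate 2. MPC1, its partner, was at 5.72 and 5.98 CPM and at 5.16 and 9.18 CPM.

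The pentose phosphate pathway had 4 of 8 tested genes above 0, a median of −0.03 and 0 called. H6PD, the hexose 6-phosphate dehydrogenase of the endoplasmic reticulum, was at 34.7 and 26.1 CPM in the controls and at 25.2 and 16.3 CPM with Rg3 (log2 fold change −0.55, SE 0.24). It was called lower without Rg3 replicate 1 at −0.90 (adjusted p = 0.01357), against −0.27 without replicate 2. RPIA, an isomerase of the pathway, had −0.34 (SE 0.23) at 3.34 to 4.75 CPM. The dehydrogenase gene PGD and the transketolase gene TKT had log2 fold changes of 0.08 and 0.04.

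Gluconeogenesis and glycogen genes had 5 of 12 tested genes above 0, a median of −0.02 and 0 called. PCK2, the mitochondrial PEP carboxykinase, was at 14.1 and 15.9 CPM in the controls and at 13.6 and 11.2 CPM with Rg3. PC, pyruvate carboxylase, was at 140 and 133 CPM and at 136 and 95.04 CPM, and was called lower without Rg3 replicate 1 at −0.52 (adjusted p = 0.02113), against −0.00070 without replicate 2. PGM2, a phosphoglucomutase, was at 38.9 and 41.6 CPM and at 39.96 and 53.44 CPM, and was called higher in the same fit at 0.41 (adjusted p = 0.04379), against −0.0097 without replicate 2.

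Regulators of glucose use had 5 of 11 tested genes above 0, a median of −0.18 and 0 called. TXNIP, a glucose-induced protein that restrains glucose uptake, was at 105 and 119 CPM in the controls and at 66.0 and 86.4 CPM with Rg3, so both Rg3 libraries were below both controls. Its log2 fold change was −0.56 (SE 0.17, unadjusted p = 0.0114, edgeR adjusted p = 0.905), and −0.77 without Rg3 replicate 2, where it was called (adjusted p = 0.005315), and −0.37 without replicate 1 (adjusted p = 0.0725). ARRDC4, a related arrestin, was at 3.78 and 6.89 CPM and at 4.16 and 4.24 CPM. MLXIP, a glucose-sensing transcription factor, was at 13.6 and 13.4 CPM and at 23.57 and 11.999 CPM. EPAS1, a hypoxia-inducible factor subunit, was at 38.9 and 27.9 CPM and at 64.6 and 32.7 CPM. Both were high in Rg3 replicate 1 alone: without replicate 2 they were called higher at 0.81 and 0.95, as was MLXIPL at 0.77, and without replicate 1 the 3 genes had −0.17, −0.02 and −0.41, in that order. HIF1A was at 259 and 276 CPM in the controls and at 212 and 243 CPM with Rg3, and STAT3 at 162 and 152 CPM and at 202 and 166 CPM. Neither passed the test.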

How the data were processed

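Total RNA of 4 libraries, 2 control and 2 Rg3, was depleted of ribosomal RNA before library construction, per the labels' protocols. Instruments of different makers are named in the series text and in the library protocol. The deposited table holds raw counts per gene symbol, which the authors had not normalised. The genome build was GRCh37, per the submitters' processing notes. The aligner, counter, annotation and strand setting are not given in the sources used here.

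Groups came from the treatment label. The quasi-likelihood fit was run in edgeR 4.0.16 (R 4.3.3) after filterByExpr (minimum count 10, minimum total 15; 16323 of 40205 genes kept) and TMM scaling, with treatment as the only term and Benjamini-Hochberg adjustment over all genes tested. SEs came from the F statistic. Log2 CPM for distances used a prior count of 2. The test was checked before use on simulated data, drawn with the same relative spread for every gene and both groups. It recovered 7.96% of 1.5-fold, 48.76% of 2-fold and 93.43% of 4-fold changes at an adjusted p under 0.05. The real data differ there, since the Rg3 libraries lay further apart than the controls. Alternatives were DESeq2 1.42.0, limma 3.58.1 (voom), other scalings, no filter, a replicate block and leaving out each library.

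The members and lists were chosen with earlier results of these data known. The text names the 10 genes, and from each list the 2 highest and 2 lowest log2 fold changes at a mean of at least 1 CPM, plus GAPDH, HIF1A, STAT3, TXNIP and the genes of nearest pattern. Pathway genes called only in an alternative fit (MLXIPL, PGAM4) were named after their values were seen. Some genes this rule takes are left out of the text but stayed in every count. TIGAR was matched by its older symbol. RefSeq promoters were found for 9 of the 10 genes.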

Additional observations from a re-analysis of the deposited data

How the results depend on the processing

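With 2 libraries a group, the counts of called genes depended on the fit, whereas calls among the 10 genes did not, apart from SLC16A3. No member was called higher in any fit. The number called lower was 0 throughout except without Rg3 replicate 1, giving a range of 0 to 1 when each library was left out. Among the pathway lists, leaving out 1 library gave 0 to 5 genes higher and 0 to 4 lower; without a low-count filter 1 gene (SLC2A6) was higher. Over all genes, counts of higher and lower calls were 5 and 0 in edgeR, 90 and 124 without a low-count filter, 39 and 18 with DESeq2, and 5 and 2 under upper-quartile scaling. Leaving out 1 library gave 31 to 428 higher and 18 to 456 lower. The causes were not tested.

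Replicate numbers are shared by the groups, but nothing ties equal numbers to a common culture or day. The log2 differences between replicates 1 and 2 of the control and Rg3 groups had r = 0.149 across 16323 genes, which are not independent. With the replicate number as a block, edgeR called 69 genes higher and 86 lower, with 0 of the 10 and, among the pathway lists, 0 higher and 1 lower, TXNIP (−0.57, adjusted p = 0.0497). Under the block HK2 had −0.030.

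Among the 10, other scalings turned the sign of HK2 alone (−0.018 under upper-quartile scaling), as did limma voom (−0.021). Over the fits that left out 1 library, the signs of 9 of the 10 turned, with log2 fold changes of SLC2A1 (−0.25 to 0.040), HK1 (−0.030 to 0.23), HK2 (−0.41 to 0.33), PFKP (−0.15 to 0.019), PFKFB3 (−0.024 to 0.28), LDHA (−0.080 to 0.16), LDHB (−0.15 to 0.28), SLC16A1 (−0.13 to 0.20) and SLC16A3 (−0.50 to 0.022). Among the other named genes the sign turned for PGM2 (−0.0097 to 0.41), ARRDC4 (−0.70 to 0.15), MLXIP (−0.17 to 0.81), EPAS1 (−0.025 to 0.95), SLC2A4 (−0.46 to 0.013), SLC2A13 (−0.11 to 0.27), BSG (−0.22 to 0.060), SLC16A7 (−0.049 to 0.031), MPC1 (−0.18 to 0.65), TKT (−0.12 to 0.19), GAPDH (−0.17 to 0.11), GPI (−0.22 to 0.14), PGAM4 (−0.50 to 0.21) and MLXIPL (−0.41 to 0.77). PKM kept its sign in all 11 alternatives. The log2 difference of the pair ratios ran from −0.38 to 0.11 for HK2 to HK1, from −0.11 to 0.072 for LDHA to LDHB, and from −0.70 to 0.15 for SLC16A3 to SLC16A1. It turned in all 3 pairs without Rg3 replicate 2, and for LDHA to LDHB also without control 2 (0.037). Summing pseudogene counts with each gene left all 3 signs as they were.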
